A study of Mus musculus with 15 samples.

Results

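The 10 genes described here, Pecam1, Cdh5, Kdr, Flt1, Tek, Tie1, Vwf, Emcn, Prox1 and Lyve1, are products of the cells that line blood and lymph vessels. They were taken by name from 44788 gene symbols, and each had 1 entry in the tables. The study followed the development of the stomach of C57BL/6 mice with 1 transcriptome of the whole organ at each of 15 time points. No treatment or mutation was involved, the days before birth were counted from the vaginal plug, and, by the methods, stomachs of several embryos were pooled for a sample up to E17.5, whereas a single stomach made up a sample after E18.5. The time points were grouped by age into the embryonic stomach (daily from E12.5 to E18.5, n = 7), the stomach of suckling age (D1, D3, D5, W1 and W2 after birth, n = 5) and the stomach of weaning age and later (W3, W6 and W8, n = 3). Animals older than W2 were males and younger ones were not sexed, so sex and age cannot be told apart in comparisons with the last group.

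Endothelial cells form the inner wall of all vessels. They are held together by PECAM1 and VE-cadherin (Cdh5), they grow and branch in response to vascular endothelial growth factors (VEGF) that are read by KDR and FLT1, and their vessels mature and quieten under angiopoietins, which are read by the TIE receptors. Lymphatic vessels arise from veins when the transcription factor PROX1 is switched on, and in the gut they carry absorbed fat. In the stomach, a dense capillary net runs between the glands and supplies the acid-secreting mucosa.

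Expression is given as FPKM (fragments per kilobase of transcript, scaled to the number of mapped fragments), which allows levels to be compared between genes. The files do not give the depth of sequencing. If the authors' confidence bounds are Poisson, between 17 and 1680 fragments lay behind each value of the 10 genes, and the bounds cover counting error only. At each time point 8 of the 10 genes were at 1 FPKM or more, Vwf was below only at W6, and Prox1 never reached 1 FPKM. FPKM is a share of the RNA in a library, and the 10 highest genes took 11.2% of all FPKM at E14.5 and 53.2% at W6, so differences of the 10 genes between groups are also given after median-ratio scaling, which sets the typical gene equal between transcriptomes. The labelled tissue was checked with genes of the stomach. Barx1, a factor of stomach mesenchyme, lay between 37.3 FPKM (W6) and 472 FPKM (E12.5), and Pgc, a pepsinogen of chief cells, between 137 FPKM (E12.5) and 151321 FPKM (W8). The D1 library stood apart in liver transcripts, with Alb (albumin) at 461 FPKM against 65.4 FPKM (W3) or less in the other 14. For Cdh5, Kdr, Vwf and Lyve1, differences across birth are also given without D1.

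The summed level of the 10 genes was between 89.9 and 123 FPKM in the embryonic stomach with a highest value at E15.5, between 69.7 and 114.5 FPKM from D1 to W2 with a highest value at D5, and 48.8, 29.7 and 48.0 FPKM at W3, W6 and W8. The sum was thus lower at each time point from W3 on than at any earlier one. After median-ratio scaling the same sums were 81.9 to 97.4 before birth, 72.2 to 107.7 from D1 to W2, and 64.1, 52.0 and 70.8 from W3 to W8. The 3 later sums still lay below each earlier one, by less. Pecam1 was the highest of the 10 in mean FPKM in each age group, at 27.2 ± 3.06 (SD, n = 7), 21.6 ± 4.79 (SD, n = 5) and 11.1 ± 3.29 FPKM (SD, n = 3). Its neighbour in the order was Cdh5 before birth, at 26.9 ± 5.41 FPKM (SD, n = 7), and their ranges overlapped, as they did from D1 to W2. From W3 to W8, Cdh5 stood sixth, at 4.41 ± 1.73 FPKM (SD, n = 3), between Tie1 and Flt1, and its range overlapped with both of its neighbours. The order by mean FPKM was Pecam1, Cdh5, Tie1, Emcn, Kdr, Lyve1, Tek, Flt1, Vwf and Prox1 before birth, where neighbours had separate ranges between Cdh5 and Tie1 and at each step from Tek down to Prox1. It was Pecam1, Cdh5, Emcn, Tie1, Lyve1, Kdr, Tek, Vwf, Flt1 and Prox1 from D1 to W2, where only Flt1 and Prox1 had separate ranges. From W3 to W8 it was Pecam1, Emcn, Lyve1, Kdr, Tie1, Cdh5, Flt1, Tek, Vwf and Prox1, with separate ranges between Pecam1 and Emcn and between Vwf and Prox1 only. In whole organs, fewer endothelial cells and less RNA of these genes per cell cannot be told apart.

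**Figure D1:**
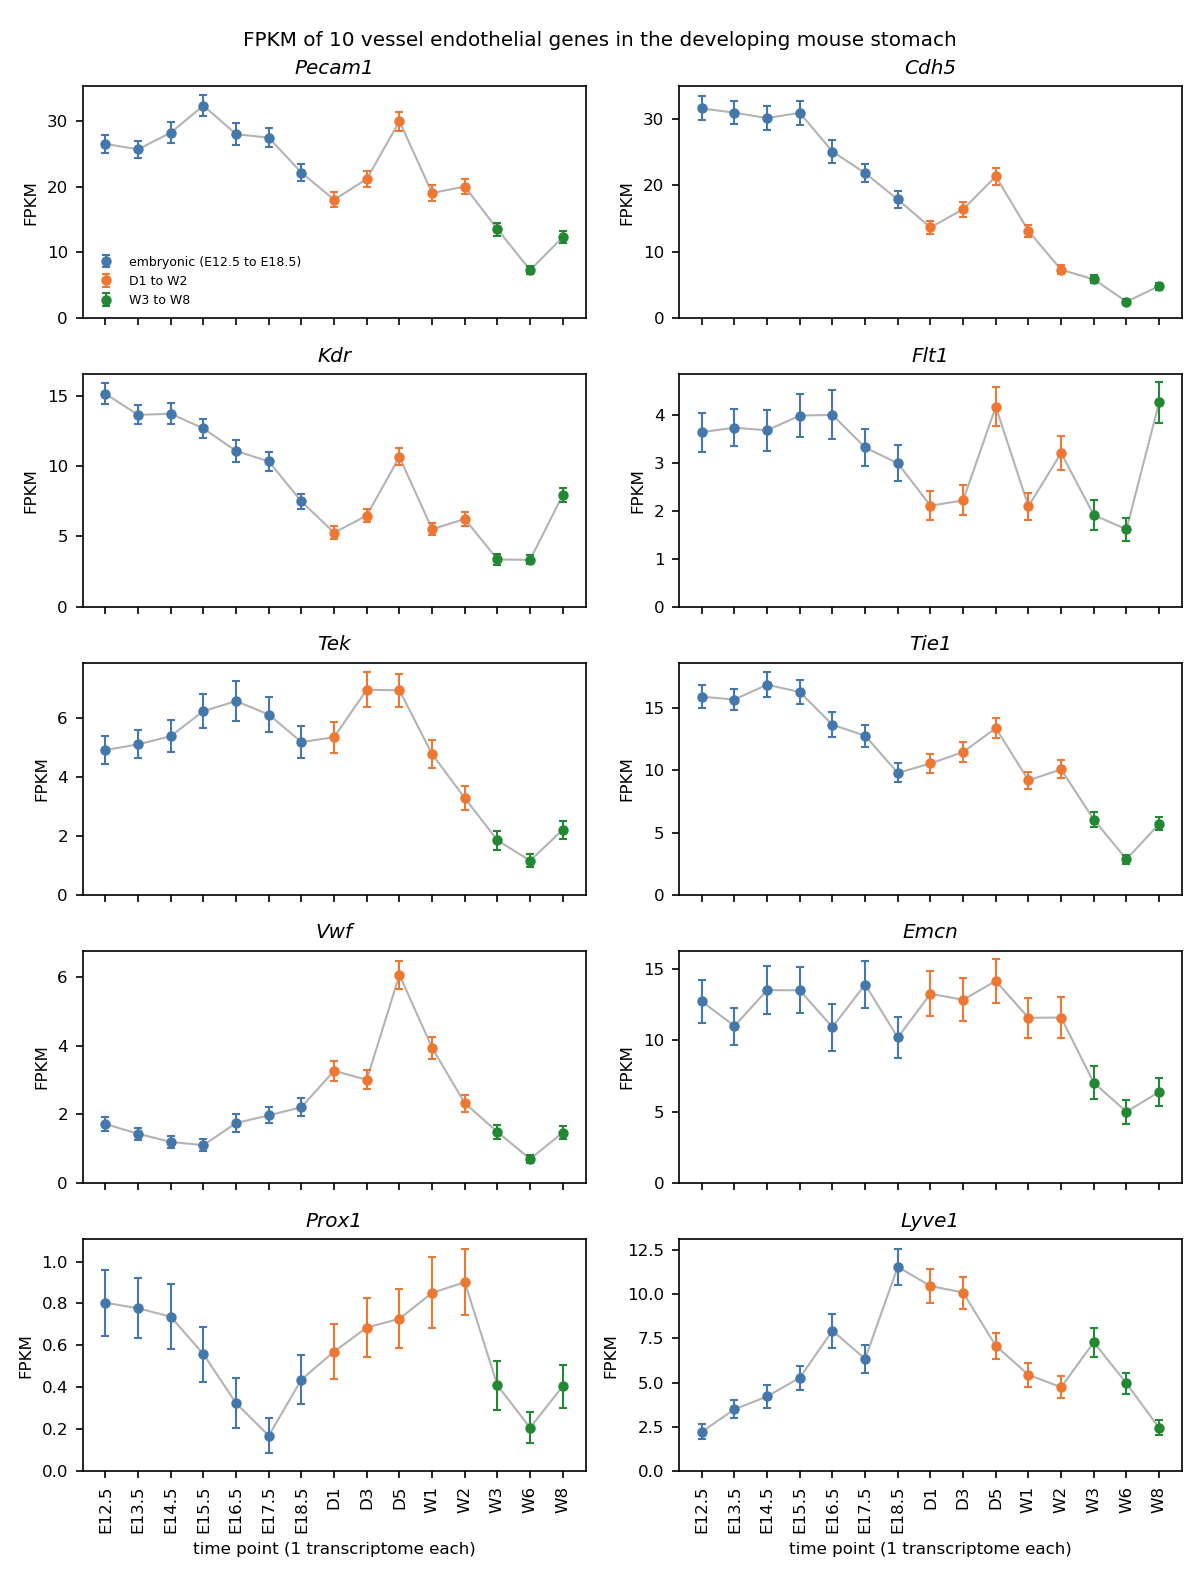
FPKM of each of the 10 genes (vertical axes, from 0) at the 15 time points (horizontal axis), with points coloured by age group and bars giving the authors' confidence bounds of the single transcriptome. Cdh5 is at 31.6 FPKM at E12.5 and 2.50 FPKM at W6, Vwf peaks at D5, Lyve1 peaks at E18.5, and Prox1 stays below 1 FPKM.

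The first comparison was between the stomach of suckling age and the embryonic stomach. In 9 genes that passed the limit of 1 FPKM, Vwf was higher from D1 to W2, and Cdh5 and Kdr were lower (limma on log2(FPKM + 1), Benjamini-Hochberg adjusted p under 0.01). Thus 1 of 9 rose and 2 of 9 fell, in a background where 41.4% of 16902 genes passed the test, 10.8% upwards and 30.6% downwards. After median-ratio scaling 2 rose (Vwf and Emcn) and none fell, against a background of 32.2%, with 17.2% upwards and 15.0% downwards. The median difference then was -0.061 for the 9 genes and 0.013 for all genes. The median difference of FPKM as deposited was -0.33 on the log2 scale for the 9 genes and -0.22 for all genes. Counted without a test, 1 of the 10 genes had each value from D1 to W2 above each embryonic value (6.63% of all genes) and none had each value below (20.9% of all genes). A share of called genes near the background is not particular to vessels, and the 3 genes are described for their own values. The time points of a group served as its replicates, so that the spread within a group includes change with age and the p-values measure only the spread between these transcriptomes.

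The second comparison was between the stomach from W3 to W8 and the stomach of suckling age. Here 6 of 9 genes fell, namely Pecam1, Cdh5, Tek, Tie1, Vwf and Emcn, and none rose, against a background of 31.4%, with 28.9% downwards and 2.57% upwards (limma, adjusted p under 0.01). The median difference of the 9 genes was -0.95 and that of all genes -0.42. With median-ratio scaling, 4 of 9 fell (Cdh5, Tek, Tie1 and Emcn) and none rose, against a background of 20.6%, with 7.77% downwards and 12.8% upwards, and the medians were -0.43 for the 9 genes and -0.0030 for all genes. Counted without a test, 7 of the 10 genes had each value from W3 to W8 below each value from D1 to W2, against 46.5% of all genes, and none had each value above, against 4.9%. The W6 library carried much of the comparison. Without it, 2 of 9 genes passed the test (Tek and Emcn), and the differences of the other 4 remained downwards with adjusted p from 0.0101 to 0.0167 (limma). The share over all genes fell as well, to 9.05%, with 8.05% downwards.

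Within the embryonic stomach, a slope per day was fitted over the 7 time points. Lyve1 rose, Cdh5 and Kdr fell, and Tie1 had a slope of -0.10 on the log2 scale per day with an adjusted p of 0.0185 (limma). This made 3 of 9 genes called, against a background of 39.8% (14.8% upwards and 25.0% downwards). The same 3 genes were called after median-ratio scaling, where the background was 36.8% (18.9% upwards and 17.9% downwards).

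**Figure D2:**
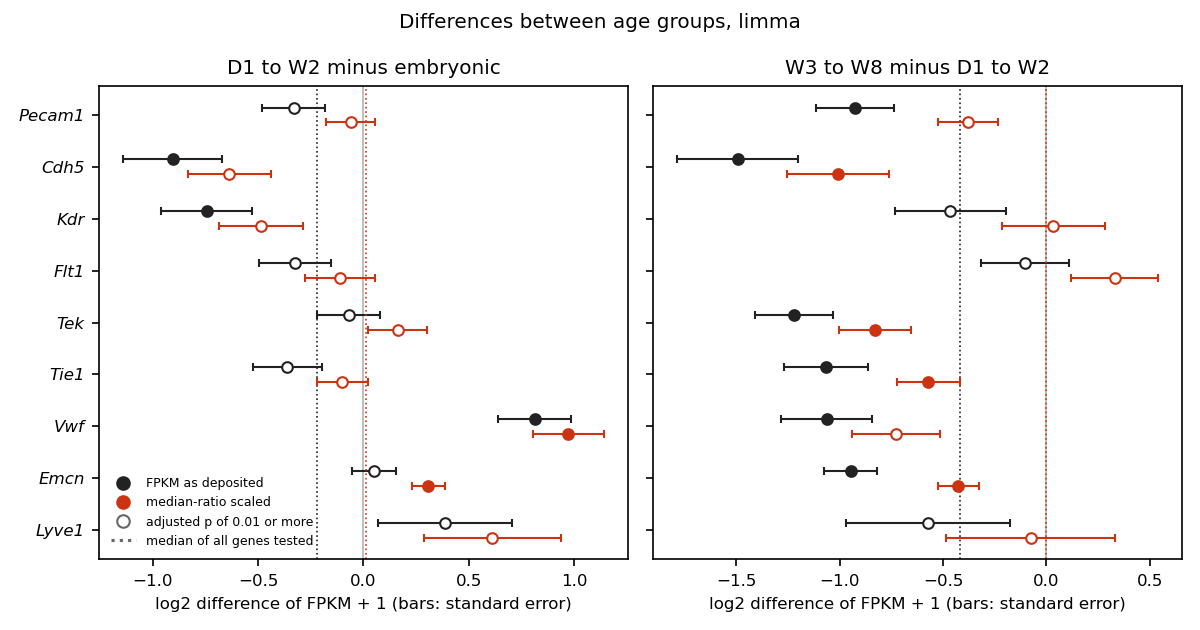
Log2 differences of FPKM + 1 (horizontal axes) with their limma standard errors for 9 genes in both comparisons, from FPKM as deposited (black) and after median-ratio scaling (red); filled points have an adjusted p under 0.01 and dotted lines mark the median of all genes. After scaling, Kdr and Flt1 lie at 0.032 and 0.33 in the second comparison, whereas Cdh5, Tek, Tie1 and Emcn stay below 0 and filled.

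Pecam1 encodes PECAM1 (CD31), an adhesion protein at the contacts between endothelial cells that is also found on platelets and leukocytes. The gene lies at chr11:106654217-106750623 (GRCm38, minus strand). In the embryonic stomach the lowest, median and highest values were 22.1 (E18.5), 27.4 (E17.5) and 32.3 FPKM (E15.5). The values were 18.0, 21.2, 29.9, 19.0 and 20.01 FPKM at D1, D3, D5, W1 and W2, and 13.53, 7.32 and 12.3 FPKM at W3, W6 and W8. The embryonic and suckling values overlapped, and the D5 value stood well above the other 4 of its group. From D1 to W2 to the later group, Pecam1 fell by 0.93 on the log2 scale (SE 0.19, limma adjusted p = 0.00165). After median-ratio scaling the difference was -0.38 with an adjusted p of 0.0510 (limma).

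Cdh5 encodes VE-cadherin, the adhesion protein of endothelial adherens junctions, and is among the more specific endothelial genes. It lies at chr8:104101613-104144504 (GRCm38, plus strand), where the GENCODE annotation also places an antisense gene, Gm29682, and it is not stated whether the counting used strand. The embryonic values had a lowest, median and highest of 17.9 (E18.5), 30.2 (E14.5) and 31.6 FPKM (E12.5). The values from D1 to W2 were 13.7, 16.4, 21.4, 13.2 and 7.30 FPKM, and those at W3, W6 and W8 were 5.87, 2.50 and 4.85 FPKM. Cdh5 was near 31 FPKM until E15.5, declined until D1, had a transient high value at D5 and then declined again.

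Over the embryonic days Cdh5 fell by 0.13 on the log2 scale per day (SE 0.026, limma adjusted p = 0.00450). From the embryonic to the suckling group it fell by 0.91 (SE 0.23, limma adjusted p = 0.00472), and mean FPKM was 1.87-fold lower. Without D1 the difference was -0.91 with an adjusted p of 0.00996 (limma). With median-ratio scaling this step had a difference of -0.64 and an adjusted p of 0.0153, above the threshold (limma). From D1 to W2 to W3 to W8 it fell by 1.49 (SE 0.29, limma adjusted p = 0.00131), which is a 3.26-fold lower mean FPKM, and after scaling it fell by 1.01 (adjusted p = 0.00591). Of the 10 genes, Cdh5 had the lowest mean FPKM at W3 to W8 relative to D1 to W2.

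Kdr and Flt1 encode VEGF receptors 2 and 1. KDR is the receptor through which VEGF-A drives endothelial growth, and FLT1 binds VEGF-A tightly but signals weakly, so that its soluble form acts as a trap. Kdr lies at chr5:75933265-75978428 and Flt1 at chr5:147562196-147726445 (both GRCm38, minus strand). Kdr had a lowest, median and highest embryonic value of 7.49 (E18.5), 12.7 (E15.5) and 15.2 FPKM (E12.5). It was at 5.27, 6.49, 10.7, 5.51 and 6.25 FPKM from D1 to W2, and at 3.35, 3.33 and 7.96 FPKM at W3, W6 and W8. Flt1 had a lowest, median and highest embryonic value of 2.99 (E18.5), 3.68 (E14.5) and 4.01 FPKM (E16.5), followed by 2.11, 2.22, 4.18, 2.09 and 3.21 FPKM from D1 to W2 and 1.91, 1.61 and 4.27 FPKM at W3, W6 and W8. Both receptors were high again at D5 and at W8, and for Flt1 the W8 value was the highest of all 15, with bounds that overlapped those of D5.

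Kdr fell by 0.14 on the log2 scale per embryonic day (SE 0.023, limma adjusted p = 0.00217). From the embryonic to the suckling group it fell by 0.74 (SE 0.22, limma adjusted p = 0.00904). Without D1, the library rich in liver transcripts, the difference was -0.67 with an adjusted p of 0.0251, and after median-ratio scaling it was -0.49 with an adjusted p of 0.0540 (limma). D1 was not particular in this. The call was also lost without any single time point from E12.5 to E17.5, or without D3, W1 or W2. It was lost as well with a pseudocount of 0.1, quantile normalization, the fixed sum or no filter on low values. In the later comparison neither receptor passed the test, and here the direction depended on the scale. The difference was -0.46 for Kdr and -0.10 for Flt1 as deposited, and 0.032 and 0.33 after median-ratio scaling (limma adjusted p from 0.156 to 0.932). The step from W6 to W8 was 2.39-fold for Kdr and 2.65-fold for Flt1, with authors' bounds that did not overlap, and was not replicated.

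Tek and Tie1 encode the receptors TIE2 and TIE1. TIE2 binds the angiopoietins, and TIE1, which has no well-established high-affinity ligand of its own, modifies its signal. Tek lies at chr4:94739081-94874951 (GRCm38, plus strand) and Tie1 at chr4:118471191-118489849 (minus strand). Tek had a lowest, median and highest embryonic value of 4.91 (E12.5), 5.38 (E14.5) and 6.57 FPKM (E16.5). It stood at 5.35, 6.96, 6.94, 4.77 and 3.28 FPKM from D1 to W2, and at 1.85, 1.16 and 2.21 FPKM at W3, W6 and W8. Tie1 had a lowest, median and highest embryonic value of 9.80 (E18.5), 15.7 (E13.5) and 16.9 FPKM (E14.5), followed by 10.6, 11.48, 13.4, 9.20 and 10.1 FPKM, and by 6.04, 2.86 and 5.70 FPKM. Tie1 was the higher of the pair at each time point.

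Neither receptor passed the test between the embryonic and the suckling group, with differences of -0.07 for Tek and -0.36 for Tie1 (limma adjusted p of 0.7003 and 0.0698). After median-ratio scaling these were 0.16 and -0.10 (adjusted p of 0.337 and 0.503), so the direction for Tek depended on the scale. Both fell from D1 to W2 to W3 to W8. Tek fell by 1.22 on the log2 scale (SE 0.19, limma adjusted p = 0.000411), a 3.14-fold lower mean FPKM, and Tie1 by 1.07 (SE 0.20, limma adjusted p = 0.00120), a 2.25-fold lower mean. After median-ratio scaling Tek fell by 0.83 (adjusted p = 0.00251) and Tie1 by 0.57 (adjusted p = 0.00963). Tek and Emcn were the genes whose decline was called in each alternative tried for this comparison, apart from the exact permutation test, which cannot reach the threshold here.

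The receptors' promoters are shown because the Kdr, Flt1, Tek and Tie1 transcripts, all receptors of the same cells, took different courses. Promoters of 6 of the 10 genes, from 250 bases before to 50 bases after the start, were taken from RefSeq (GRCm38.p6), and those of Pecam1, Cdh5, Vwf and Lyve1 were not analysed here. ETS factors such as ERG and FLI1 bind a GGAAG core and are active in endothelium, and capitals mark GGAAG on either strand (CTTCC where it lies on the other strand). The stretches are chr5:75978406-75978705 for Kdr, chr5:147725962-147726261 for Flt1, chr4:94739039-94739338 for Tek and chr4:118489800-118490099 for Tie1, each 5′ to 3′ on the gene's strand.
Kdr: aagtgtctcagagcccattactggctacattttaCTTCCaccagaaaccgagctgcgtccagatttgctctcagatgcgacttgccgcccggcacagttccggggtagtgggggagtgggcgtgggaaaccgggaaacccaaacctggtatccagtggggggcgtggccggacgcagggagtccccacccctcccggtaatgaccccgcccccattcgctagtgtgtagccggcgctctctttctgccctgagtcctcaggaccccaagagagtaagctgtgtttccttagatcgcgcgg
Flt1: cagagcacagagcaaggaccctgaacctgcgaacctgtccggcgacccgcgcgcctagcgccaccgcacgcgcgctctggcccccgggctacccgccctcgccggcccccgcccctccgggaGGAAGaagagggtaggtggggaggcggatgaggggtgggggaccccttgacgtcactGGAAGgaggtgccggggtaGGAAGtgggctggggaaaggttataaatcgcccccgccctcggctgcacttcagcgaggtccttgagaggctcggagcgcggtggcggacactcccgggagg
Tek: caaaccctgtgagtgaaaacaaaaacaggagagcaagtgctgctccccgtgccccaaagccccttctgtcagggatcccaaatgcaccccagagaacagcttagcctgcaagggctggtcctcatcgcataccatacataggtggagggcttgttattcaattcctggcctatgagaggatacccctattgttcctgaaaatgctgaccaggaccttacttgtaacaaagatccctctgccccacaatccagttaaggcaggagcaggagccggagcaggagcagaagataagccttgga
Tie1: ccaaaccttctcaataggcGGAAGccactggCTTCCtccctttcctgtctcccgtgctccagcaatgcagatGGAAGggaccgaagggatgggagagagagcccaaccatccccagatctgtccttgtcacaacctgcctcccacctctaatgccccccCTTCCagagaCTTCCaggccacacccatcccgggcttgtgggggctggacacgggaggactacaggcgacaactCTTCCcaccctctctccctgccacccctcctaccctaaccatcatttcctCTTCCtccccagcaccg
The Tie1 stretch held 7 copies of GGAAG, the Flt1 stretch 3 and the Kdr stretch 1, and there was no copy in the Tek stretch. At least 1 copy was found in 71.4% of 32851 promoters of this length, so a match is common. None of the 7 promoters of the 6 genes held the longer ETS motif CCGGAAGT, which 3.89% of all promoters held. The Flt1 stretch and 1 of the 2 Prox1 promoters held TATAAA, found in 13.6% of promoters, and the Tek stretch held AGATAA, a motif of the GATA family that 11.2% held. ACAAT, a SOX motif found in 31.0% of promoters, occurred 2 times in the Tek stretch and 1 time in the Emcn stretch. These matches are letters in a window and were not related to the values.

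Vwf encodes von Willebrand factor, a clotting protein stored in endothelial cells of larger vessels and veins and also in megakaryocytes and platelets. It lies at chr6:125552936-125686679 (GRCm38, plus strand). The embryonic values had a lowest, median and highest of 1.10 (E15.5), 1.72 (E12.5) and 2.21 FPKM (E18.5). The values from D1 to W2 were 3.27, 3.00, 6.06, 3.94 and 2.32 FPKM, and those at W3, W6 and W8 were 1.49, 0.699 and 1.47 FPKM. Each value from D1 to W2 lay above each embryonic value, which was true of no other gene of the 10 and of 6.63% of all genes.

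Vwf rose by 0.81 on the log2 scale from the embryonic to the suckling group (SE 0.17, limma adjusted p = 0.00163), which is 2.29-fold in mean FPKM. The rise was 0.84 without D1 (adjusted p = 0.00324) and 0.97 after median-ratio scaling (adjusted p = 0.000668, limma). It then fell by 1.06 (SE 0.22, limma adjusted p = 0.00173). After scaling, this second difference was -0.73 with an adjusted p of 0.0159. Of 7 platelet and megakaryocyte markers, 3 were high enough to be tested, and none of these was called in the first comparison, beside 41.4% of all genes. The summed level of the list was 23.6 to 58.8 FPKM before birth, 26.9 to 71.2 FPKM from D1 to W2 and 8.19 to 31.7 FPKM later, most of it Pf4. The part of platelets in the Vwf values was not tested.

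Emcn encodes endomucin, a sialomucin on the surface of capillary and venous endothelium that limits leukocyte adhesion. It lies at chr3:137341062-137431069 (GRCm38, plus strand). The embryonic values had a lowest, median and highest of 10.2 (E18.5), 12.7 (E12.5) and 13.9 FPKM (E17.5), the values from D1 to W2 were 13.3, 12.9, 14.2, 11.6 and 11.6 FPKM, and those at W3, W6 and W8 were 7.03, 5.004 and 6.38 FPKM. Emcn was level through birth and suckling and was lower at each of the 3 later time points. The difference across birth was 0.05 as deposited (limma adjusted p = 0.687). After median-ratio scaling Emcn rose by 0.31 (limma adjusted p = 0.00614). From D1 to W2 to W3 to W8 it fell by 0.95 (SE 0.13, limma adjusted p = 0.000229), and by 0.43 after scaling (adjusted p = 0.00487).

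Prox1 encodes the transcription factor that specifies lymphatic endothelium and is also expressed in other epithelial and endocrine cells. It lies at chr1:190118035-190170826 (GRCm38, minus strand), where GENCODE also places the antisense genes Gm28172 and Prox1os, so reads of these cannot be told from reads of Prox1 if the counting did not use strand. The embryonic values were 0.804, 0.777, 0.737, 0.558, 0.325, 0.170 and 0.437 FPKM from E12.5 to E18.5. The values from D1 to W2 were 0.570, 0.685, 0.727, 0.851 and 0.901 FPKM, and those at W3, W6 and W8 were 0.409, 0.208 and 0.405 FPKM. The course thus had a low point at E17.5, with bounds of 0.0872 to 0.252 FPKM, a high point at W2, with bounds of 0.744 to 1.06 FPKM, and low values from W3 on that lay below each value of the suckling group.

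Because Prox1 stayed below the limit of 1 FPKM, it was tested only with no filter on low values. Its difference was 0.19 across birth (limma adjusted p = 0.192) and -0.38 from D1 to W2 to W3 to W8 (adjusted p = 0.0442), and its embryonic slope was -0.092 per day (adjusted p = 0.0275), none of which passed the threshold of 0.01. With median-ratio scaling as well, the differences were 0.29 and -0.22 (adjusted p of 0.0323 and 0.216). Of 4 tested endocrine genes, 3 rose across birth (Chga, Chgb and Ghrl) and 2 rose later (Chga and Chgb), beside 10.8% and 2.57% of all genes. Pax6 was not called in either comparison. Chga (chromogranin A) rose by 2.99 and again by 2.64 on the log2 scale (limma adjusted p of 0.000179 and 0.00154), with 3.36 FPKM at the first and 532 FPKM at the last time point. The part of endocrine cells in the Prox1 values was not tested.

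Lyve1 encodes a hyaluronan receptor of lymphatic capillaries that is also carried by tissue macrophages and by the endothelium of liver sinusoids. It lies at chr7:110850607-110862953 (GRCm38, minus strand). The embryonic values were 2.22, 3.499, 4.22, 5.28, 7.94, 6.35 and 11.54 FPKM from E12.5 to E18.5. The values from D1 to W2 were 10.46, 10.1, 7.08, 5.45 and 4.74 FPKM, and those at W3, W6 and W8 were 7.29, 4.96 and 2.44 FPKM. Lyve1 was thus higher at each embryonic time point than at the one before, except at E17.5, and was lower at each following time point up to W2, with a second high value at W3. Alb, a liver transcript, stood at 65.4 FPKM at W3, beside 1.81 FPKM at W2 and 0.869 FPKM at W6. The hepatocyte markers Apoa2, Fgb, Serpina1a and Ttr were likewise higher at W3 than at W2 and W6, whereas Apoa1 and Afp were not.

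Lyve1 rose by 0.29 on the log2 scale per embryonic day (SE 0.035, limma adjusted p = 0.000516), and by 0.31 after median-ratio scaling (adjusted p = 0.000331). Neither comparison between age groups passed the test, with differences of 0.39 and -0.57 (limma adjusted p of 0.301 and 0.233). After median-ratio scaling they were 0.61 and -0.077 (adjusted p of 0.129 and 0.898). Without D1 the differences of FPKM as deposited were 0.27 and -0.45. Over the same embryonic days, 4 of 9 macrophage markers rose and none fell, beside 14.8% and 25.0% of all genes. The 4 were C1qa, C1qb and C1qc, the chains of complement C1q, and Cd163, a scavenger receptor of resident macrophages. The summed level of the 9 markers was 71.1 FPKM at E12.5, 146 FPKM at E18.5 and 211 FPKM at D1, with 165 to 211 FPKM in the suckling group and 82.3 to 212 FPKM later. Mrc1, a mannose receptor of macrophages and some lymphatic and sinusoidal endothelium, had its highest value at E18.5 as Lyve1 did, at 10.2 FPKM, as did Cd163 at 1.77 FPKM. The other markers of this list had their highest values after birth, at D1, D3, D5, W1 or W3. The part of macrophages and of liver tissue in the Lyve1 values was not tested.

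The other lymphatic genes did not follow a common course with Lyve1. Of 8 lymphatic genes besides Prox1 and Lyve1, 7 were tested. Across birth, Ccl21a, a chemokine that guides leukocytes into lymphatic vessels, rose by 1.39 (limma adjusted p = 0.00231), whereas Flt4, the VEGF-C receptor, fell by 0.75 (adjusted p = 0.000998) and Nrp2, a co-receptor for VEGF-C, fell by 1.03 (adjusted p = 0.00435). Flt4, Nrp2 and Itga9 fell over the embryonic days in which Lyve1 rose. At E12.5, Nrp2 stood at 42.1 FPKM and Flt4 at 6.77 FPKM, and the part of other cells in the Nrp2 values was not tested. From D1 to W2 to W3 to W8, 4 of 7 fell, beside 28.9% of all genes. The largest fall was that of Nrp2 at -1.59 (limma adjusted p = 0.00173), with Flt4, Itga9 and Pdpn as the others. After median-ratio scaling 1 of 7 fell, Nrp2 by 1.11 (adjusted p = 0.00780), beside 7.77% of all genes. The other 3 genes then had adjusted p from 0.0384 to 0.116 (limma). The medians as deposited were -0.21 and -0.75, beside -0.22 and -0.42 for all genes. The ratio of Lyve1 to Prox1 FPKM stood at 2.76 (E12.5) and 37.4 (E17.5), was back at 5.26 by W2, and was 17.8, 23.9 and 6.03 at W3, W6 and W8. No difference of this ratio between groups passed the exact permutation test.

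**Figure D3:**
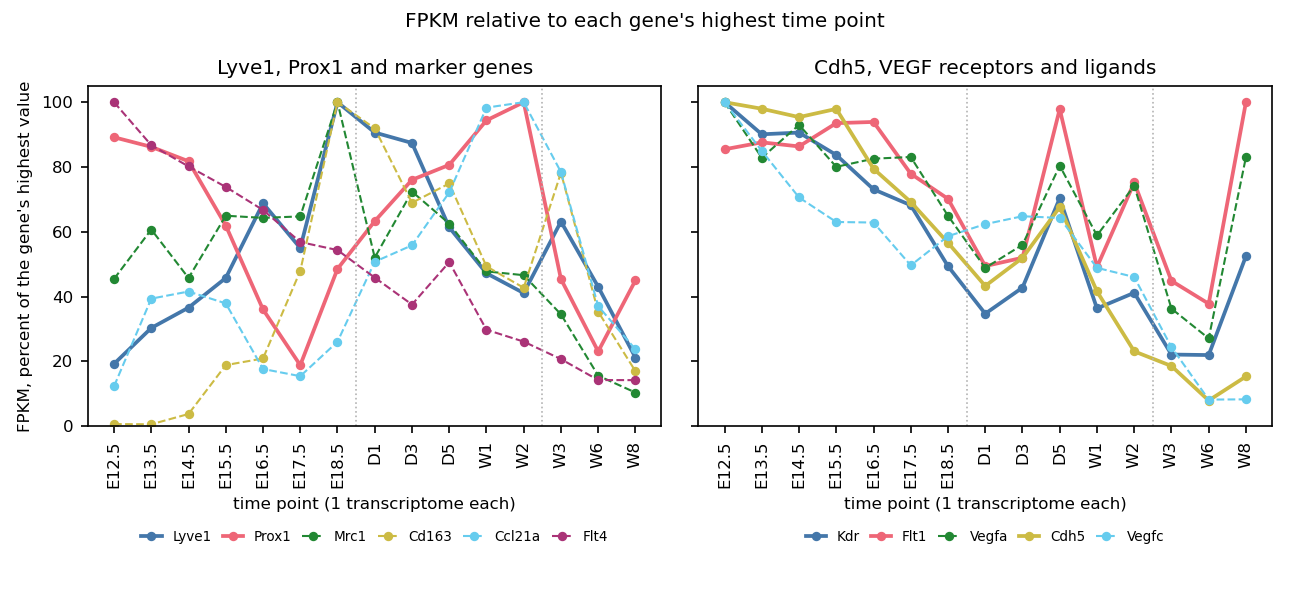
FPKM as percent of each gene's highest time point (vertical axes) over the 15 time points; solid lines are genes of the 10 and dashed lines are marker or ligand genes. On the left, Lyve1, Mrc1 and Cd163 are highest at E18.5, Prox1 and Ccl21a at W2 and Flt4 at E12.5. The other macrophage markers, which are not drawn, are highest after birth. On the right, Flt1 and Vegfa are higher at D5, W2 and W8 than at D1, D3, W1, W3 and W6. Both are also higher at each time point from E12.5 to E17.5 than at W2.

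Ratios between 2 of the genes within a transcriptome do not depend on how the library was scaled. Cdh5 was taken as the common denominator for 9 ratios, and Flt1 to Kdr, Tek to Tie1 and Lyve1 to Prox1 were added, which gave 24 comparisons in both contrasts. Log2 ratios were compared with exact two-sided permutation tests over time points (792 arrangements across birth and 56 in the later comparison, smallest possible p of 0.00126 and 0.0179). Across birth, 6 of 12 ratios rose at an adjusted p under 0.05. All 6 have Cdh5 below the line and are therefore not independent of each other. Cdh5 itself fell by 0.91 on the log2 scale across birth (limma), beside a median of -0.22 for all genes. A ratio to Cdh5 can thus rise without a rise of the other gene. Among the genes above the line in these 6, only Vwf was called higher as deposited. The share of all genes that rose relative to Cdh5 was not counted.

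Vwf to Cdh5 rose 4.34-fold across birth, from a lowest, median and highest of 0.0356, 0.0543 and 0.123 before birth to 0.239, 0.183, 0.284, 0.299 and 0.318 from D1 to W2 (exact permutation p = 0.00126, adjusted p = 0.00758). Emcn to Cdh5 rose 2.02-fold, Tie1 to Cdh5 1.48-fold and Prox1 to Cdh5 2.97-fold, each with groups that did not overlap (exact permutation p = 0.00126, adjusted p = 0.00758). Tek to Cdh5 rose 1.83-fold (exact permutation, adjusted p = 0.0152) and Pecam1 to Cdh5 1.53-fold (adjusted p = 0.0121). Pecam1 and Cdh5, both junction genes, thus stood at a ratio of 0.838 at E12.5, 1.24 at E18.5 and 2.74 at W2. The ratio of Kdr to Cdh5 was between 0.385 and 0.4996 at all time points but W2, W3, W6 and W8, where it was 0.856, 0.572, 1.33 and 1.64, and it did not pass the exact permutation test in either contrast (adjusted p of 0.764 and 0.0857).

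Flt1 to Kdr, the ratio of the weakly signalling to the strongly signalling VEGF receptor, was 0.240 at E12.5, 0.399 at E18.5, 0.342 to 0.514 from D1 to W2 and 0.570, 0.484 and 0.536 at W3, W6 and W8. The groups overlapped and the exact permutation tests gave adjusted p of 0.0682 and 0.143. Tek to Tie1 was 0.308 at E12.5, 0.529 at E18.5, 0.606 at D3 and 0.325 at W2, then 0.306, 0.405 and 0.388, with adjusted p of 0.187 and 0.161 (exact permutation). In the later comparison 0 of 12 ratios were called by the exact permutation test after adjustment. The one with the lowest p was Kdr to Cdh5, 2.21-fold higher from W3 to W8 (exact permutation p = 0.0357).

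**Figure D4:**
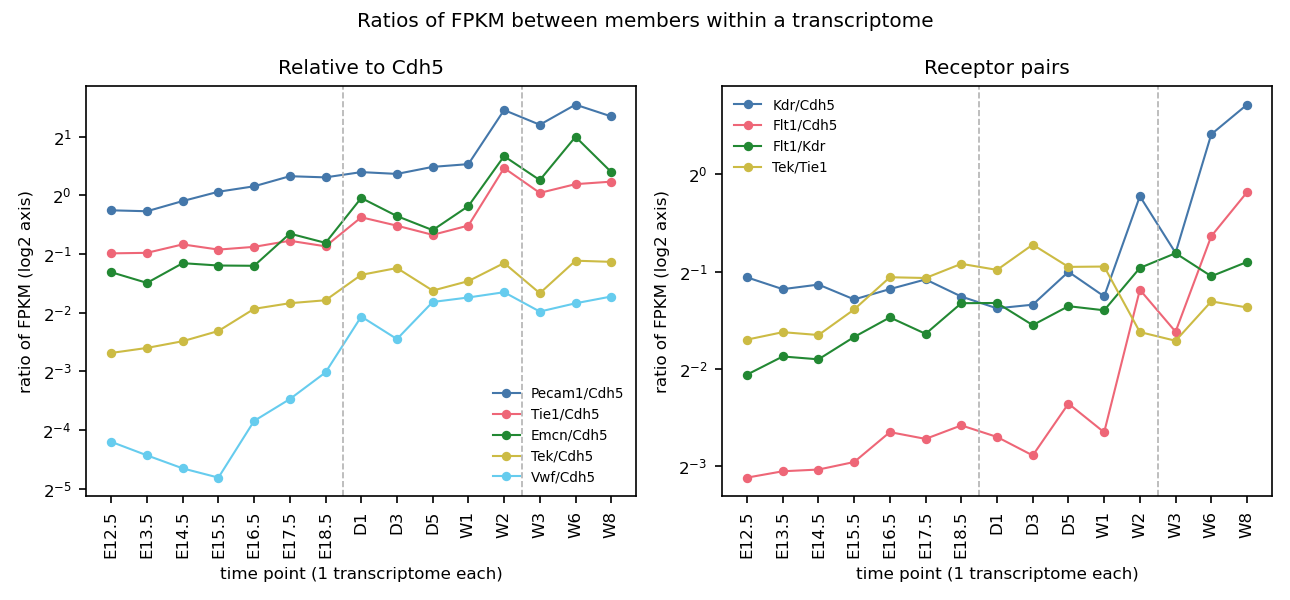
Ratios of FPKM within a transcriptome (vertical axes, log2 scale) over the 15 time points, with dashed lines between the age groups. On the left, Pecam1, Tie1, Emcn, Tek and Vwf relative to Cdh5 are higher at each time point from D1 to W2 than at each embryonic one; on the right, Kdr and Flt1 relative to Cdh5 are highest at W8, at 1.64 and 0.880.

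The ligands of these receptors were examined from a list of 6 VEGF ligands and co-receptor genes. Pgf (placental growth factor, a FLT1 ligand) fell by 1.34 across birth and Nrp1, a co-receptor of KDR, by 0.88 (limma adjusted p of 0.000859 and 0.00130). From D1 to W2 to W3 to W8, Vegfc, the lymphatic growth factor, fell by 1.48 and Vegfb, a FLT1 ligand, rose by 0.76 (limma adjusted p of 0.000312 and 0.00191), and the same 4 calls were made after median-ratio scaling. Vegfa, the main ligand of KDR, was not called in either comparison. It stood at 16.48 FPKM at W3, 12.3 FPKM at W6 and 37.7 FPKM at W8, a step of 3.07-fold from W6 to W8. Vegfa was the second most similar of all genes to Flt1 over the 15 transcriptomes, with a Pearson r of 0.906, a description that rests on libraries shared by both genes. With median-ratio scaling Vegfa was not among the 3 genes most similar to Flt1. Figf, which is Vegfd, rose by 0.38 per embryonic day (limma adjusted p = 9.77e-05).

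Of the 3 angiopoietin genes, 2 were tested. Angpt1, the activating TIE2 ligand made by cells around the vessel, fell by 0.78 across birth and by 0.75 later (limma adjusted p of 0.000551 and 0.00345). It fell by 0.58 and 0.59 after median-ratio scaling (adjusted p of 0.00153 and 0.00684). Angpt2, the context-dependent ligand released by endothelium, fell by 0.44 in the later comparison (limma adjusted p = 0.00947), which was -0.15 and not called after scaling. Among 7 markers of mural cells, which wrap capillaries and small arteries, 2 fell across birth and 6 fell later, beside 30.6% and 28.9% of all genes. The later falls were led by Kcnj8 and Notch3 with -1.87 each and Mcam with -1.63 (limma adjusted p of 0.00118, 0.000903 and 0.000765). The median of the mural list in the later comparison was -1.31, beside -0.42 for all genes. After scaling, 3 of the 7 fell in the later comparison, beside 7.77% of all genes. Across birth, Notch3 then fell by 1.07 and Mcam rose by 0.83 (limma adjusted p of 0.00252 and 0.00521). Pdgfrb, called lower as deposited, was not called after scaling (adjusted p = 0.0168). Over all genes 15.0% fell and 17.2% rose across birth after scaling.

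Of 24 other pan-endothelial genes, 19 fell from D1 to W2 to W3 to W8 and none rose, beside 28.9% and 2.57% of all genes. Their median was -1.04, beside -0.42 for all genes. Cldn5, the claudin of endothelial tight junctions, fell by 2.19, Ecscr by 1.45 and Cd34 by 1.42 (limma adjusted p of 0.000121, 0.00185 and 0.00314). After median-ratio scaling, 8 fell, again led by Cldn5 at -1.70, and 1 rose, Plvap, the protein of fenestral diaphragms, by 0.71 (limma adjusted p = 0.00853). Over all genes 7.77% then fell and 12.8% rose. Plvap was between 34.4 FPKM (E12.5) and 68.7 FPKM (W8) and was named after its values had been seen. Across birth 2 of the 24 fell and none rose, beside 30.6% and 10.8% of all genes. The 2 were Icam2 at -0.92 and Fli1 at -0.64 (limma adjusted p of 0.00177 and 0.00839). The median of the 24 was -0.18 as deposited and 0.057 after scaling.

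Genes of vessel types were followed for comparison. Over all genes, 30.6% fell and 10.8% rose across birth, and 28.9% fell and 2.57% rose in the later comparison. Of 6 tested arterial genes, 3 fell across birth (Efnb2 by 1.14, Gja5 by 1.003 and Hey1 by 0.97) and 4 later, the largest being Dll4, a NOTCH ligand of arterial endothelium, by 1.17 (limma adjusted p = 0.000237). After median-ratio scaling Dll4 and Gja4 were still called later, beside 7.77% of all genes that fell. Gja5 and Sema3g then were not (limma adjusted p of 0.01004 and 0.0947). Of 4 tested venous genes, Ephb4, the receptor of ephrin-B2, fell by 0.92 and 1.33 (limma adjusted p of 0.00135 and 0.000862), and Aplnr, the apelin receptor, fell by 2.41 in the later comparison (adjusted p = 8.93e-05). At E12.5, Efnb2 and Ephb4 stood at 51.0 and 52.5 FPKM, beside 31.6 FPKM for Cdh5 and 5.94 FPKM for Gja5. The part of other cells in the Efnb2 and Ephb4 values was not tested. Of 6 sprouting genes, Unc5b rose by 0.67 across birth (limma adjusted p = 0.00467) and Angpt2, which is on both lists, was the 1 that fell later. After median-ratio scaling none of the 6 fell later and Kcne3, a potassium channel subunit, rose by 2.07 (limma adjusted p = 0.00214). As deposited its difference was 1.51 with an adjusted p of 0.0105 (limma), and it was named after its values had been seen. Kcne3 stood at 2.54 FPKM at E18.5 and 13.6 FPKM at W8, and the part of other cells in its values was not tested. Of 6 genes of capillary lipid and fluid handling, Fabp4 rose by 2.104 and Cd36 by 1.05 across birth (limma adjusted p of 0.00121 and 0.00356), both of which are also expressed in fat cells and Cd36 in macrophages, and Aqp1 fell by 1.18 later (adjusted p = 0.00511).

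Among the markers of blood and other cells, 3 of 6 erythroid genes fell across birth, 2 of 7 hepatocyte genes rose (Apoa1 and Ttr, which the gut and its endocrine cells also express), and 3 of 4 tested endocrine genes rose. Over all genes, 30.6% fell and 10.8% rose across birth, and 28.9% fell and 2.57% rose later. Of 9 macrophage genes 2 rose across birth, C1qa by 1.01 and Csf1r by 0.61 (limma adjusted p of 0.00192 and 0.00760), and 5 rose after median-ratio scaling. In the later comparison no erythroid gene was called, 2 of 4 endocrine genes rose, 1 of 7 hepatocyte genes rose (Apoa1), 2 of 9 macrophage genes fell (Csf1r and Mrc1, each by 1.21) and 1 of 3 platelet genes fell (Itga2b by 0.65; limma adjusted p under 0.01 for each). After median-ratio scaling the directions of the list genes named here remained. Besides the lymphatic, mural and arterial genes for which this is given above, some were no longer called then. These were Efnb2, Hey1, Nrp2 and Fli1 across birth, and Ecscr, Cd34, Angpt2, Aqp1, Csf1r, Mrc1 and Itga2b later, with adjusted p from 0.0109 to 0.320 (limma).

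Between neighbouring time points most of the 10 genes often moved in 1 direction, and so did many other genes. From D3 to D5, 8 of the 10 were higher as deposited, by a median of 1.23-fold, and the bounds were apart for 7. Over all genes 53.1% were higher at this step, with a median of 1.02-fold. Bounds that were apart were counted for the 10 genes only, at this and the later steps, so these counts have no background. From D5 to W1, 9 of the 10 were lower, beside 68.0% of all genes. Both counts were the same after median-ratio scaling. From W2 to W3, 9 were lower with Lyve1 as the exception, beside 75.3% of all genes that were lower, and the bounds of all 10 were apart. After scaling 8 were lower, and Cdh5 and Lyve1 were higher. From W3 to W6 all 10 were lower as deposited, beside 85.9% of all genes, and the bounds were apart for 8 of the 10. After scaling 8 were lower and Kdr and Flt1 were higher. The median step from W3 to W6 was 0.584-fold for the 10 genes and 0.771-fold for all genes. From W6 to W8, 9 of the 10 were higher, as deposited and after scaling, by a median of 1.94-fold as deposited, whereas the median over 16038 genes was 1.13-fold and 65.3% were higher. The exception was again Lyve1, which was 2.03-fold lower at W8. Steps between single transcriptomes have no replicate error.

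Over the 15 transcriptomes, Tie1 had a Pearson r of 0.970 with Pecam1, Cdh5 0.942, Tek 0.904, Emcn 0.896, Kdr 0.823 and Flt1 0.669, whereas Prox1 had 0.385, Vwf 0.309 and Lyve1 0.0719. After median-ratio scaling the first 6 were 0.856, 0.767, 0.738, 0.434, 0.519 and 0.159. All genes were measured in the same libraries, whose scale changed with age, so these values are descriptions.

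The genes most similar to Pecam1 among all genes were Cd93, Gimap6 and Myct1 (Pearson r of 0.974, 0.973 and 0.973 over 15 transcriptomes), of which Cd93 and Myct1 are endothelial genes. Those nearest to Cdh5 were Ptprs, Stx2 and Lrp1 (r of 0.992, 0.992 and 0.991), to Kdr Tagap1, Gga3 and Sugp2 (0.979, 0.972 and 0.970), and to Flt1 Gm6654, Vegfa and LOC102632594 (0.918, 0.906 and 0.898). For Tek they were Madcam1, an adhesion molecule of mucosal venules, Cdc25b and Lama5 (0.977, 0.970 and 0.969), and for Tie1 Hdac7, Dffb and Srek1 (0.985, 0.982 and 0.982). Vwf was most similar to Srpk3, 6530402F18Rik and Grip2 (0.925, 0.923 and 0.920), Emcn to Ptp4a3, Sun2 and Fbxw4 (0.971, 0.966 and 0.962), Prox1 to Cul9, Cnp and Grk4 (0.925, 0.893 and 0.868), and Lyve1 to Gng12, 4833423E24Rik and Hopx (0.922, 0.912 and 0.908). With median-ratio scaling the nearest gene was the same for Kdr (Tagap1) and Tie1 (Hdac7) and another one for the other 8.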

How the data were processed

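RNA-Seq was measured in whole stomachs at 15 time points. The authors deposited 1 table of FPKM values per time point, with confidence bounds, in the layout of Cufflinks. The paper's methods name HISAT2, StringTie and a GENCODE annotation, the submitters' processing notes name Bowtie 0.12.2, FastQC and the build GRCm38.p2, and the methods name liver as the source of RNA where the labels give stomach. Where a few genes take much of the RNA, the FPKM of all other genes is lowered.

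FPKM entries of a symbol were summed. The 16902 genes that reached 1 FPKM at any time point were tested on log2(FPKM + 1) with limma 3.58.1 in R 4.3.3, with Benjamini-Hochberg adjustment over all of them and a threshold of 0.01. All 3 age groups entered 1 fit, and the slope per embryonic day was fitted over the 7 embryonic libraries (16799 genes). With the 1 added before taking logs, differences of genes at low FPKM come out too small. Ratios were compared in Python 3.11.15 with exact permutation tests, adjusted over 24 comparisons, with a threshold of 0.05. Steps were tested on simulated data. Groups follow the age labels, since the study's phases were drawn from these transcriptomes. The members and gene lists were chosen with earlier results of these data known. Named genes are the 10 members, up to 3 called genes per list with the largest differences, list genes set beside a member, and the 3 genes most similar to each member over the 15 transcriptomes. Alternatives were other scalings, pseudocounts, limits, tests and groupings, and leaving out each time point. Read depth is unknown. Starts, which the files count from 0, are printed counted from 1. Proteins were not analysed here.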

Additional observations from a re-analysis of the deposited data

Results flagged for a closer look

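Within the age groups of 5 and 7 time points, 44 groups of values were examined for a single value far from the others (Dixon's gap test at 95%), and 7 were found. Chance alone flags about 1 in 20 such groups, and the ratios share Cdh5. At D5, Pecam1 at 29.9 FPKM and Kdr at 10.7 FPKM lay above the other 4 time points from D1 to W2, of which the nearest were at 21.2 and 6.49 FPKM. At W2, 4 ratios to Cdh5 lay above those from D1 to W1: Pecam1 to Cdh5 was 2.74 (nearest 1.45), Kdr to Cdh5 was 0.856 (nearest 0.4996), Flt1 to Cdh5 was 0.440 (nearest 0.195) and Tie1 to Cdh5 was 1.38 (nearest 0.772). At E18.5, Lyve1 to Cdh5 was 0.645, above the other 6 embryonic values, of which the nearest was 0.316. Each is a single transcriptome.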

How the results depend on the processing

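The counts of called genes depended on the scaling and on single libraries, and the cause was not tested. Across birth, 3 of the 10 genes were called, and 1 with a fixed sum without the 10 highest genes, with no filter on low values, or with the exact permutation test, where the share called over all genes was 41.4%, and 31.2%, 22.5% and 14.9%. Leaving out 1 time point gave 1 to 3, with 1 (Vwf) without E13.5, E14.5, E15.5, W1 or W2. The share called over all genes fell as well in these runs, to 32.6%, 32.4%, 33.4%, 30.2% and 30.3%. In the later comparison 6 were called, and 2 with quantile normalization, on untransformed FPKM, or with median-ratio scaling and no filter (chosen after seeing the data). The share called over all genes was 31.4%, and 13.4%, 10.6% and 11.1% in these alternatives. Leaving out 1 time point gave 2 to 6, with 2 without W6, where 9.05% of all genes were called. For the embryonic slope the range was 2 to 3, beside 26.7% to 36.3% of all genes in these runs and 39.8% with all 7 time points. Of the list genes, 27 were called across birth, and 6 by the exact permutation test, and leaving out 1 time point gave 19 to 33. The share called over all genes was 41.4%, 14.9% and 30.2% to 49.2%. In the later comparison 46 list genes were called, and 24 with median-ratio scaling, 15 with quantile normalization, 14 on untransformed FPKM and 16 with scaling and no filter, and 13 to 48 with 1 time point left out (13 without W6, 27 without W8). Over all genes the share was 31.4%, and 20.6%, 13.4%, 10.6% and 11.1% in these alternatives. It was 9.05% without W6 and 19.5% without W8. For the slope, 41 were called, and 26 to 40 with 1 left out (26 without E12.5), beside 39.8% of all genes and 27.2% without E12.5. With E18.5 moved to the suckling group, 12 ratios were called, and leaving out 1 time point gave 6 to 8. The exact permutation test cannot reach the threshold of 0.01 after adjustment in the later comparison, so its calls there are not read.

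Directions turned for 10 results, none of them called. With median-ratio scaling, with or without the filter, the embryonic slopes of Pecam1 and Emcn were 0.0126 and 0.0123, the later differences of Kdr and Flt1 0.032 and 0.33, and the difference of Tek across birth 0.16. With quantile normalization Kdr, Flt1 and Tek were at 0.11, 0.51 and 0.057, and Tek was at 0.000616 with the fixed sum. With E18.5 moved, Emcn was at -0.036 and Lyve1 to Prox1 at 0.32. With 1 time point left out, the slopes reached 0.0226 (Pecam1) and 0.0160 (Emcn), Flt1 ranged from -0.42 to 0.090 and Tek from -0.16 to 0.068. The log2 ratios ranged from -0.076 to 0.21 (Kdr to Cdh5 across birth), -0.034 to 0.24 (Tek to Cdh5, later), -0.030 to 0.17 (Vwf to Cdh5, later) and -0.46 to 0.17 (Lyve1 to Prox1 across birth). The slopes ranged from -0.038 (Pecam1) and -0.041 (Emcn).

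Each age has 1 library, so age and library cannot be told apart, and depth limits Prox1, whose E17.5 value rests on 17 fragments if the bounds are Poisson. No paired analysis was possible because the replicate numbers name different ages.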
